A study of Mus musculus with 10 samples.

Results

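The BAF (BRG1/BRM-associated factor) complex is an ATP-dependent chromatin remodeler assembled from many subunits, several of which come in alternative forms encoded by related genes. Neural progenitors that leave the cell cycle and become neurons exchange some of these forms. The actin-related subunit ACTL6A is replaced by ACTL6B, the PHD finger proteins PHF10 and DPF2 by DPF1 and DPF3, and SS18 by SS18L1. In the cerebellum, granule cell precursors (GCPs) pass through this exchange when they turn into granule neurons, and GCPs are also the cells from which Sonic Hedgehog medulloblastoma (SHH MB) arises. The genes described here are these 4 progenitor subunits (Actl6a, Phf10, Dpf2, Ss18) and 4 neuronal subunits (Actl6b, Dpf1, Dpf3, Ss18l1), together with Smarcd3 and Bcl11a, 2 further subunits with known roles in neural development. These 10 genes were chosen by name among the 50559 gene symbols counted in the libraries, and all 10 passed the filter on low counts.

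RNA from formalin-fixed, paraffin-embedded (FFPE) mouse tissue was sequenced in 10 libraries. MYC/SMARCA4 tumors (n = 4) grew from GCPs of tamoxifen-induced Math1-creERT2::Smarca4fl/fl pups that had been given a lentiviral construct with the murine Myc gene. These cells were transplanted without sorting into the cerebella of immunodeficient CD1nu/nu mice, and tumors 1 to 4 were taken at ages of 112, 96, 89 and 79 days. P7 cerebella (n = 3) were whole cerebella of Math1-creERT2::Smarca4fl/fl mice, which had received tamoxifen (0.4 mg) at day 3 after birth and were taken at 7 days. The P7 cerebella therefore carried the same floxed alleles and the same inducible Cre as the transplanted GCPs, with Cre driven by Math1 (Atoh1), a gene of GCPs, so that other cerebellar cells keep Smarca4. SHH MB (n = 3) came from Math1-cre::Smofl/wt mice, also 7 days old, in which Cre acts on an engineered Smo (Smoothened) allele from the same promoter, and no Smarca4 allele is named for them. A tumor punch takes all cells within its area, including host cells, and age, host and tissue differ between the tumors and both other groups, so that their contributions cannot be told apart from that of the engineered genes. In bulk RNA, fewer cells of a type and less RNA per cell cannot be told apart either. The labels do not say whether the libraries of a group come from separate litters or transplantations, so p-values measure the spread between these samples.

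Between 5663491 and 9352109 reads were counted on genes per library, and each of the 10 subunit genes had at least 31 counts in every library. Counts of all libraries were fitted together with edgeR's quasi-likelihood model. A gene is called higher or lower when its p-value, adjusted over all 29952 genes tested, is at most 0.05. Its log2 fold change (log2FC) is given ± standard error from that fit. Levels are given as log2 CPM, the log2 of counts scaled to the normalized library size with a prior count of 2. Comparisons between genes use CPM per kilobase of exon length. Where the exact permutation test of mean levels is given, the smallest possible two-sided p is 0.029 for 4 against 3 libraries and 0.1 for 3 against 3.

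The engineered genes were looked at first. In tumors 1 to 4, Myc had levels of 7.24, 8.51, 10.62 and 9.98 log2 CPM, compared to between 3.72 and 3.85 in P7 cerebella and between 5.07 and 5.51 in SHH MB. All tumors thus lay above all other libraries. Smarca4, which encodes the ATPase of the complex, had 7.69, 7.92, 7.08 and 7.88 log2 CPM in tumors 1 to 4, 7.78, 8.13 and 8.01 in P7 cerebella and 9.08, 8.93 and 9.19 in SHH MB. Its log2FC in the tumors was -1.39 ± 0.28 (adjusted p = 0.0157) against SHH MB, without overlap of the groups, and -0.30 ± 0.28 (adjusted p = 0.495) against P7 cerebella. The call against SHH MB was kept in 14 of 19 alternatives and lost when any of the 3 SHH MB was left out, in the fit of these 2 groups only and with the replicate number as a block (adjusted p up to 0.122). Reads were counted over the entire gene and in all cells of a punch, also where the deletion had taken place, so that the level of Smarca4 does not check the deletion in tumor cells.

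Tumor 1 stood apart from tumors 2 to 4 in marker genes of the cells a punch could hold. The 14 genes of mature granule neurons summed to 11145 CPM in tumor 1 and to 4908, 1224 and 2600 CPM in tumors 2 to 4, compared to 2416 to 2927 CPM in P7 cerebella and 1208 to 1410 CPM in SHH MB. The 16 proliferation genes summed to 177 CPM in tumor 1, to between 2370 and 2681 CPM in the other tumors, to between 1001 and 1374 CPM in P7 cerebella and to between 2750 and 3211 CPM in SHH MB. Tumor 1 was therefore the library with the highest sum for mature granule neurons and the lowest sum for proliferation of all 10. Sums over 16 genes of postmitotic neurons were 7050, 4318, 904 and 2632 CPM in tumors 1 to 4, 4387 to 4851 CPM in P7 cerebella and 3068 to 3548 CPM in SHH MB. Purkinje cell markers (10 genes) followed the same order of tumors, with 14245, 3995, 800 and 2765 CPM, compared to 2440 to 2825 CPM in P7 cerebella and 1202 to 1585 CPM in SHH MB. No marker of these 4 lists was at 0 in any library. The sums do not speak for each gene. Of the 16 genes of postmitotic neurons, 11 were fitted lower and 5 higher in the tumors than in P7 cerebella. Tubb3 and Dcx were called lower against both other groups, and Snap25 and Syt1 higher against SHH MB. In tumor 1, Snap25 was at 11.29 log2 CPM, compared to between 6.90 and 7.41 in P7 cerebella. Dcx was at 3.88 log2 CPM in tumor 1, compared to between 9.06 and 9.30 in P7 cerebella. Of the 14 genes of mature granule neurons, 11 were fitted higher and 3 lower in the tumors than in P7 cerebella. Gabra6, Grin2c, Cbln3 and Slc17a7 were called higher. Grin2c and Cbln3 were higher in every tumor than in every cerebellum, while tumor 3 lay within the cerebella for Gabra6 and Slc17a7. Against SHH MB, all 14 were fitted higher and 7 were called. Tumor 1 also differed as a library. It had 6.36% mitochondrial counts, compared to between 2.29% and 2.94% in tumors 2 to 4 and between 1.25% and 1.59% in the other groups. Its normalization factor was 0.62, compared to between 0.81 and 1.27 in tumors 2 to 4 and between 1.01 and 1.19 in the other groups. Tumor 3 lay at the other end, with the lowest sums of all 10 libraries for postmitotic neurons (904 CPM) and Purkinje cells (800 CPM). Since tumor 1 differed in the ways given above, tests of subunit genes whose call or size it changes are given with and without it. Calls of subunit genes that appear without tumor 3 are given as well. These choices were made after these values were seen. The part of the cells with these markers, and of the library itself, in the results below was not tested.

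**Figure D1:**
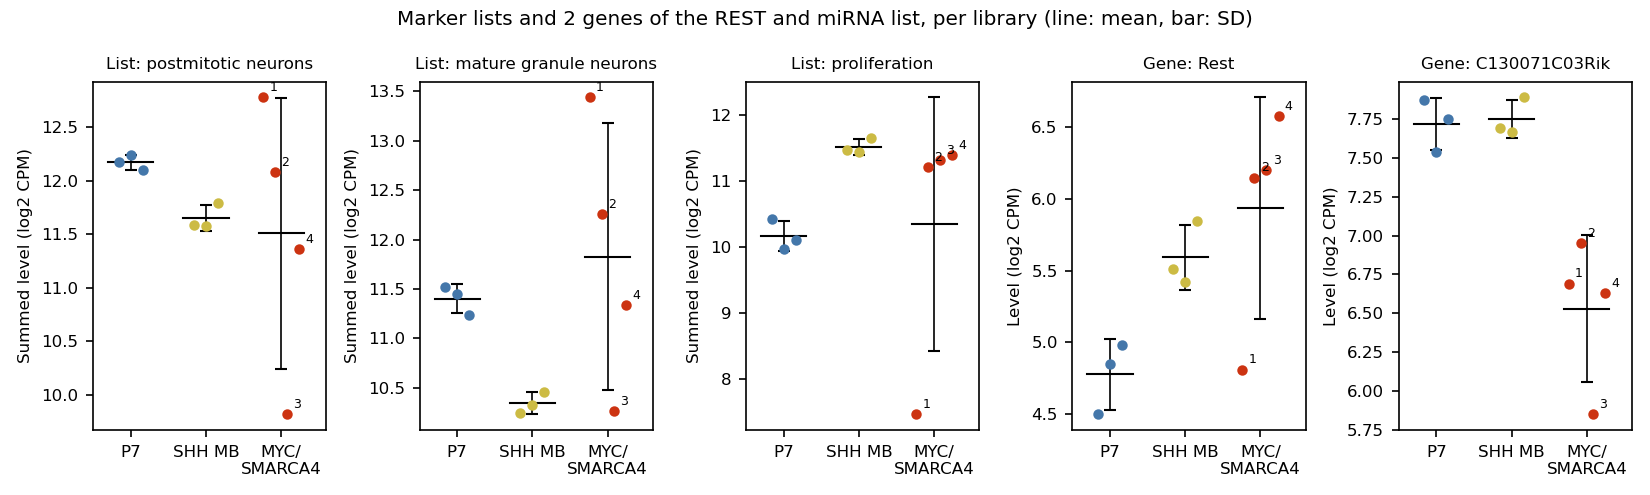
Summed level of 3 marker lists and level of Rest and C130071C03Rik (y axes, log2 CPM) in each library of the 3 groups (x axis). Points are libraries, with tumors numbered 1 to 4, lines are group means and bars are SD. Tumor 1 has the highest sum of mature granule neuron markers and the lowest sum of proliferation markers, and all 4 tumors lie below all other libraries for C130071C03Rik.

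Actl6a and Actl6b encode the actin-related proteins whose exchange is the best known step of the switch. Actl6a lies on chromosome 3 from 32760447 to 32781128 of GRCm39 (plus strand, 14 exons), and Actl6b on chromosome 5 from 137551767 to 137567844 (plus strand, 14 exons). Per kilobase of exon length, both genes had about the same level in P7 cerebella, with 7.48 ± 0.96 CPM per kilobase (SD, n = 3) for Actl6a and 7.38 ± 0.743 (SD, n = 3) for Actl6b. In SHH MB, Actl6a had 11.8 ± 1.3 and Actl6b 2.96 ± 0.273 CPM per kilobase (SD, n = 3). In MYC/SMARCA4 tumors the levels were 11.3 ± 3.71 for Actl6a and 2.99 ± 2.58 CPM per kilobase for Actl6b (SD, n = 4), so that the spread of Actl6b between tumors was nearly as large as its mean.

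Their promoters are shown here because this pair had the largest difference from P7 cerebella among the 3 ratios given below. Both are 300-base windows from RefSeq on GRCm38.p6, from 250 bases before to 50 bases after the annotated start, and the capitals mark ATTGG or its reverse complement CCAAT, the core of the CCAAT box.
Actl6a promoter, chr3:32708296-32708595, plus strand: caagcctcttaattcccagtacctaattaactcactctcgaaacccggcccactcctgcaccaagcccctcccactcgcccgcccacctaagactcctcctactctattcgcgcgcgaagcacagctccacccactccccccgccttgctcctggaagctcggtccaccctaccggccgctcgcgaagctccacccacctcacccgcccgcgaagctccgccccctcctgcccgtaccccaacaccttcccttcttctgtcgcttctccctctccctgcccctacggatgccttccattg
Actl6b promoter, chr5:137553296-137553595, plus strand: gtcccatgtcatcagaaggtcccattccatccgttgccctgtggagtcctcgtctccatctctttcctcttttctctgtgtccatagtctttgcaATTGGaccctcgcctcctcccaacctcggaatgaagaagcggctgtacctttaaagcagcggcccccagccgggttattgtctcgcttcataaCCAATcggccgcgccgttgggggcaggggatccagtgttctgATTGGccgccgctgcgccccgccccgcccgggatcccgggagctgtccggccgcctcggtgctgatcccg
The Actl6a window held no such match and the Actl6b window held 3. Of the 9 subunit genes with a window, Dpf3 also had 3 matches, Dpf1 had 2, Dpf2 and Bcl11a had 1 each, and Phf10, Ss18l1 and Smarcd3 had none. Among all 32851 windows, 37.4% held at least 1 match and 3.37% held 3 or more. This motif was chosen after the sequences were seen. The E-box CACGTG, a motif of MYC-family proteins that reads the same on both strands, was in none of the 9 windows and in 7.15% of all windows. A match describes letters in a window and not the binding of a factor.

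Actl6b was at 5.07, 3.79, 2.19 and 3.13 log2 CPM in tumors 1 to 4, at 5.16, 5.37 and 5.10 in P7 cerebella and at 3.94, 4.01 and 3.76 in SHH MB. Tumor 1 was just under the lowest P7 cerebellum, while tumor 2 was in the range of SHH MB and tumors 3 and 4 were below it. Against P7 cerebella, the log2FC was -1.32 ± 0.50 (adjusted p = 0.124), which does not pass the threshold. Every tumor lay below every cerebellum (exact permutation test, p = 0.057). Without tumor 1 the log2FC of Actl6b was -2.18 ± 0.31 (adjusted p = 0.000709). Against SHH MB it was 0.00 (95% interval -1.09 to 1.08), and the tumors lay on both sides of the SHH MB libraries.

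Actl6a was at 4.80, 5.54, 5.37 and 5.98 log2 CPM in tumors 1 to 4, at 5.08, 4.86 and 4.72 in P7 cerebella and at 5.53, 5.71 and 5.40 in SHH MB. Tumor 1 lay among the cerebella, and tumors 2 to 4 lay above them. The log2FC of Actl6a against P7 cerebella was 0.59 ± 0.29 (adjusted p = 0.214), and without tumor 1 it was 0.66 ± 0.21 (adjusted p = 0.0452). Part of the exons of Actl6a (11.6% of exon length) overlaps Mrpl47 on the opposite strand, and whether counting used the strand is not given in the sources used here.

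The ratio of both genes within a library does not depend on scaling between libraries, though its height, unlike its differences between libraries, depends on the annotated exon length. On the log2 scale and per exon length, Actl6b over Actl6a was -0.06, -2.08, -3.51 and -3.20 in tumors 1 to 4, -0.26, 0.17 and 0.03 in P7 cerebella and -1.92, -2.03 and -1.98 in SHH MB. Both transcripts were thus about equally abundant in the cerebella and in tumor 1, whereas Actl6a predominated in SHH MB and in tumors 2 to 4. The group means of this log2 ratio were -2.21 ± 1.56 (SD, n = 4), -0.02 ± 0.22 (SD, n = 3) and -1.98 ± 0.06 (SD, n = 3). The difference between tumors and P7 cerebella was -2.19, and -2.91 without tumor 1. The difference between SHH MB and P7 cerebella was -1.96, with all 3 SHH MB below all 3 cerebella. Tumors and SHH MB differed by -0.23, which changed to -0.95 without tumor 1 and to 0.20 without tumor 3. These ratios are a description and were not tested.

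**Figure D2:**
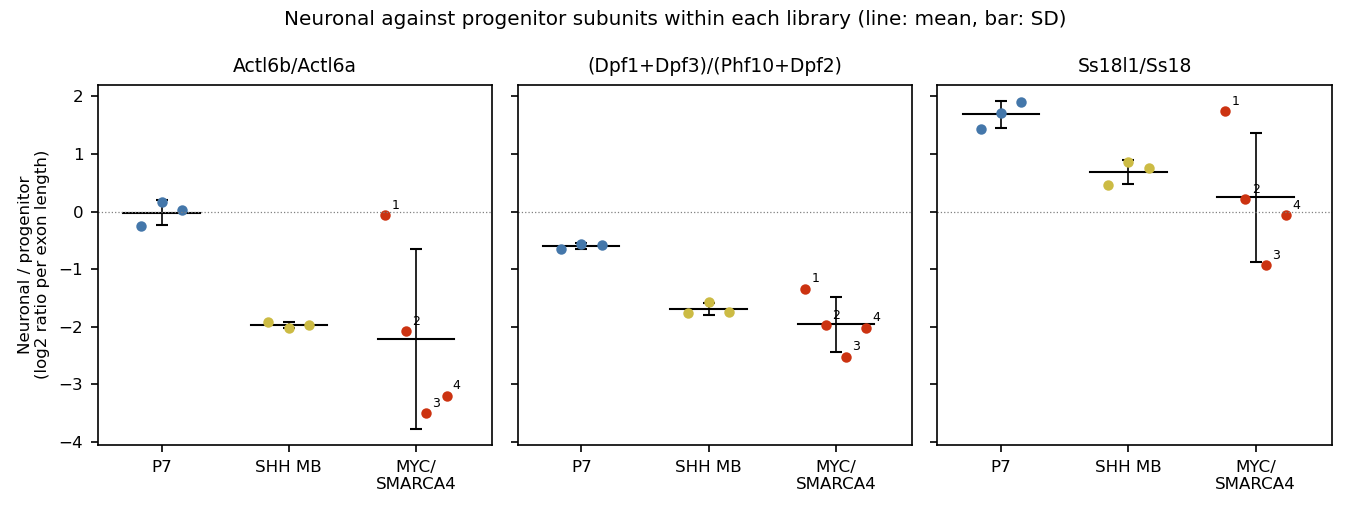
Log2 ratio of neuronal to progenitor subunits per exon length (y axis) in each library of the 3 groups (x axis), for ACTL6, PHD finger and SS18 subunits. Points are libraries, with tumors numbered 1 to 4, lines are group means, bars are SD and the dotted line marks equal levels. SHH MB lie below P7 cerebella in all 3 panels, and tumor 1 lies highest of the tumors in each.

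Among the PHD finger subunits, which read modified histone tails, the data differed from gene to gene. Dpf3, a neuronal form, was lower in the tumors than in P7 cerebella and was the only one of the 10 subunit genes called in this comparison. In all genes tested, 6.26% were called in either direction and 2.27% were called lower. Dpf3 was at 4.24, 4.50, 3.10 and 3.60 log2 CPM in tumors 1 to 4, at 5.38, 5.48 and 5.27 in P7 cerebella and at 4.41, 4.64 and 4.20 in SHH MB. All 4 tumors, tumor 1 included, lay below the cerebella, with tumors 1 and 2 in the range of SHH MB and tumors 3 and 4 below it. The log2FC of Dpf3 was -1.44 ± 0.32 (adjusted p = 0.0234), a 2.72-fold lower level (exact permutation test, p = 0.029). Without tumor 1 it was -1.66 ± 0.29 (adjusted p = 0.0026). The call was lost when any P7 cerebellum or any SHH MB was left out and in the fit of these 2 groups only (adjusted p = 0.07), with a log2FC between -1.75 and -1.37 over all 19 alternatives. Against SHH MB the log2FC was -0.48 (95% interval -1.18 to 0.21).

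Dpf1, the other neuronal PHD finger subunit, did not follow Dpf3. It was at 4.66, 3.98, 3.17 and 4.92 log2 CPM in tumors 1 to 4, at 4.10, 4.35 and 3.91 in P7 cerebella and at 3.64, 3.96 and 4.11 in SHH MB. The 3 groups overlapped, and tumors lay both above and below all other libraries. The log2FC against P7 cerebella was 0.20 (95% interval -0.60 to 1.00), and its sign turned in 5 of 19 alternatives. A test of Dpf1 against Dpf3 was not made.

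Phf10, a progenitor form, was at 6.0, 6.53, 6.06 and 6.86 log2 CPM in tumors 1 to 4, at 5.61, 5.59 and 5.35 in P7 cerebella and at 6.04, 6.07 and 6.06 in SHH MB. It was the only one of the 10 genes for which every tumor, tumor 1 included, lay above every cerebellum (exact permutation test, p = 0.029), which 10.3% of all genes tested did. In the other direction, Actl6b, Dpf3 and Ss18l1 lay without overlap below the cerebella, as did 10.7% of all genes. The log2FC of Phf10 was 0.89 ± 0.27, and its adjusted p of 0.0652 does not pass the threshold. Without tumor 1 it was 0.90 ± 0.21 (adjusted p = 0.0119), and with DESeq2 0.95 (adjusted p = 0.0134). Phf10 shares 24.7% of its exon length with 1600012H06Rik on the opposite strand, so its counts carry that uncertainty.

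Dpf2, the other progenitor PHD finger subunit, was at 5.61, 5.76, 5.01 and 5.84 log2 CPM in tumors 1 to 4, at 5.30, 5.50 and 5.19 in P7 cerebella and at 5.53, 5.65 and 5.69 in SHH MB. The range of the tumors covered both other groups. Its log2FC was 0.25 (95% interval -0.29 to 0.80) against P7 cerebella and -0.04 (95% interval -0.58 to 0.50) against SHH MB.

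Summed over both forms, the neuronal to progenitor log2 ratio of PHD finger subunits was -1.34, -1.97, -2.52 and -2.02 in tumors 1 to 4, -0.65, -0.56 and -0.58 in P7 cerebella and -1.77, -1.58 and -1.74 in SHH MB. Progenitor forms were thus in excess in every library, and in this ratio all 4 tumors lay below all cerebella. The difference was -1.37 for the tumors and -1.10 for SHH MB against P7 cerebella, 2 comparisons that share the same cerebella. Without tumor 1 it was -1.58 for the tumors. It was -0.27 between tumors and SHH MB, which overlapped, and this changed to -0.47 without tumor 1 and to -0.08 without tumor 3.

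Ss18 and Ss18l1 encode related coactivators that occupy the same place in the complex. Ss18, the progenitor form, was at 5.46, 6.65, 6.45 and 6.69 log2 CPM in tumors 1 to 4, at 5.80, 5.69 and 5.41 in P7 cerebella and at 6.12, 6.17 and 6.23 in SHH MB. Tumors 2 to 4 lay above all other libraries, and tumor 1 lay within the cerebella. The log2FC of Ss18 against P7 cerebella was 0.75 ± 0.30 (adjusted p = 0.143), and 0.87 ± 0.19 (adjusted p = 0.00758) without tumor 1. Against SHH MB it was 0.22 (95% interval -0.42 to 0.85).

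Ss18l1, the neuronal form, was at 5.86, 5.53, 4.16 and 5.28 log2 CPM in tumors 1 to 4, at 5.88, 6.06 and 5.97 in P7 cerebella and at 5.23, 5.68 and 5.62 in SHH MB. All tumors lay below all cerebella, tumor 1 only by a narrow gap (exact permutation test, p = 0.057). The log2FC was -0.65 ± 0.33 (adjusted p = 0.24), and -0.98 ± 0.28 (adjusted p = 0.0339) without tumor 1. Per exon length, Ss18l1 exceeded Ss18 in P7 cerebella, with log2 ratios of 1.44, 1.71 and 1.91. This log2 ratio was 0.46, 0.86 and 0.75 in SHH MB and 1.75, 0.22, -0.93 and -0.06 in tumors 1 to 4. This log2 ratio was thus lower in SHH MB and in tumors 2 to 4 than in the cerebella, while tumor 1 resembled the cerebella. Its height rests on exon lengths of 11669 bases for Ss18 and 4577 bases for Ss18l1. By counts, Ss18l1 and Ss18 had 580 and 546, 612 and 475, and 440 and 298 in P7 cerebella. In SHH MB they had 242 and 450, 437 and 613, and 348 and 530. Tumors 1 to 4 had 236 and 178, 257 and 563, 127 and 626, and 318 and 850. Which form was in excess in SHH MB and tumor 2 thus depends on the lengths.

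Smarcd3, a core subunit whose form has known roles in neural and muscle development, was at 5.11, 4.69, 3.47 and 3.90 log2 CPM in tumors 1 to 4, at 5.10, 5.24 and 5.16 in P7 cerebella and at 4.52, 3.98 and 3.55 in SHH MB. Tumors 2 to 4 were below the cerebella and tumor 1 was level with them. The log2FC against P7 cerebella was -0.75 ± 0.37 (adjusted p = 0.224), and -1.17 ± 0.30 (adjusted p = 0.0193) without tumor 1. Of its exon length, 43.4% overlaps Chpf2 on the opposite strand, the largest overlap with a protein-coding gene among these genes. Bases shared with exons of other gene types were not measured.

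Bcl11a, a zinc finger protein that joins the complex, was at 4.32, 5.63, 6.12 and 6.23 log2 CPM in tumors 1 to 4, at 5.42, 5.20 and 5.11 in P7 cerebella and at 6.38, 6.08 and 6.57 in SHH MB. Tumor 1 was the lowest and the SHH MB were the highest libraries apart from overlap with tumors 3 and 4. Its log2FC in the tumors was 0.50 (95% interval -0.31 to 1.31) against P7 cerebella and -0.62 (95% interval -1.41 to 0.18) against SHH MB. Without tumor 1 it was 0.69 ± 0.23 (adjusted p = 0.0577) against P7 cerebella and -0.46 ± 0.22 (adjusted p = 0.262) against SHH MB.

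**Figure D3:**
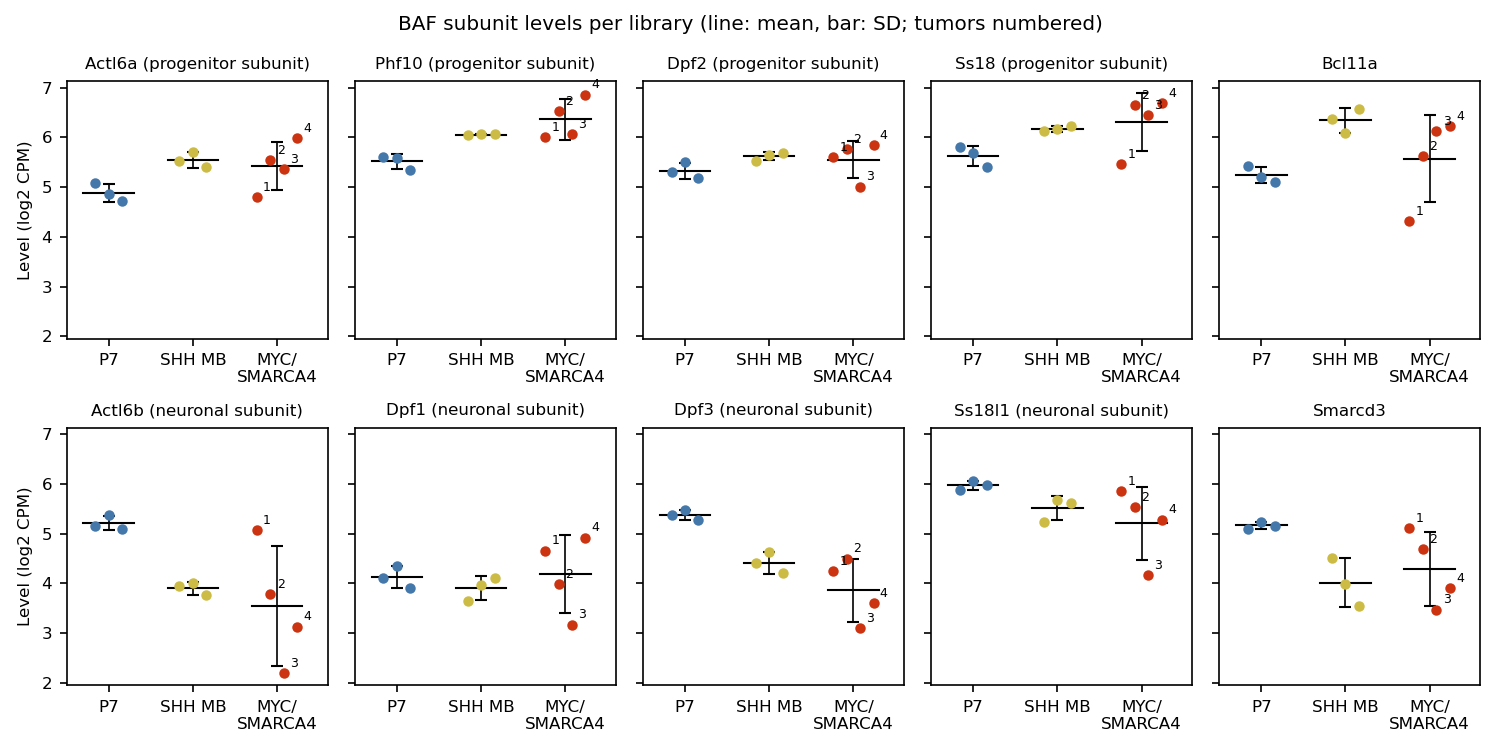
Level (y axis, log2 CPM) of the 10 subunit genes in each library of the 3 groups (x axis), with progenitor forms and Bcl11a in the upper row and neuronal forms and Smarcd3 in the lower row. Points are libraries, with tumors numbered 1 to 4, lines are group means and bars are SD. Phf10 is higher and Dpf3 lower in all 4 tumors than in all 3 P7 cerebella, whereas Dpf1 overlaps in all groups.

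Among all 10 genes, edgeR called 0 higher and 1 lower in MYC/SMARCA4 tumors than in P7 cerebella, where 3.99% and 2.27% of all genes were called. With an unadjusted p under 0.05, 2 genes were higher and 2 lower, as were 15.3% and 9.98% of all genes. DESeq2 called 1 higher (Phf10) and 1 lower (Dpf3), where it called 13.8% of genes. The 4 progenitor forms had a median log2FC of 0.67 and the 4 neuronal forms one of -0.99, beside -0.05 over all genes tested. Without tumor 1, Actl6a, Phf10 and Ss18 were called higher and Actl6b, Dpf3, Ss18l1 and Smarcd3 lower, so that 7 genes were called, where 15.7% of all genes were. In that fit 9.64% of genes were called higher and 6.11% lower. Tumor 1 was set apart by high neuron and low proliferation markers, so leaving it out favors lower neuronal and higher progenitor forms. The direction of these 7 calls is therefore not independent of that choice.

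Between MYC/SMARCA4 tumors and SHH MB, none of the 10 genes was called by edgeR, where 4.68% of all genes were. None had an unadjusted p under 0.05, which 12.7% of all genes had as higher and 7.09% as lower, and DESeq2 called none, where it called 12% of genes. Adjusted p-values ranged from 0.383 to 0.998, and no gene was without overlap of the groups, compared to 16.1% of all genes. Medians were 0.09 for progenitor and -0.10 for neuronal forms. The intervals stay wide, and for Actl6b they include a 2-fold change in either direction, so that these data do not show equal levels. Without tumor 1, Actl6b had a log2FC of -0.89 ± 0.31 (adjusted p = 0.102).

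SHH MB and P7 cerebella were compared at the same age of 7 days. They differ in tissue, Cre line and named Smarca4 alleles, and of the 2 groups tamoxifen is named only for the cerebella. These contributions cannot be told apart here. Smarca4 itself had a log2FC of 1.09 ± 0.30 (adjusted p = 0.26) in the fit of all libraries, with every SHH MB above every cerebellum. In the fit of all libraries none of the 10 genes was called by edgeR, where 0.224% of all genes were, while 2 higher and 3 lower genes had an unadjusted p under 0.05, as had 5.16% and 3.64% of all genes. This fit takes its spread also from the tumors, whose libraries differ most from each other. The tumor comparisons in turn take part of their spread from the other groups. In the fit of tumors and P7 cerebella only, the lowest adjusted p of the 10 genes was 0.07, for Dpf3. In a fit of SHH MB and P7 cerebella only, in which 23.7% of all genes were called, 8 of the 10 genes were called. Actl6a, Phf10, Ss18 and Bcl11a were higher in SHH MB, with log2FC values of 0.68, 0.56, 0.55 and 1.13, where 13.4% of all genes were called higher. Actl6b, Dpf3, Ss18l1 and Smarcd3 were lower, with -1.30, -0.93, -0.42 and -1.09, where 10.3% of all genes were called lower. Their adjusted p-values ranged from 4.53e-07 for Bcl11a to 0.0232 for Ss18l1. Dpf2 (0.31, adjusted p = 0.102) and Dpf1 (-0.19, adjusted p = 0.529) did not pass. Groups did not overlap for 9 of the 10 genes, all but Dpf1, compared to 36.8% of all genes tested. In the same libraries, the sum of proliferation markers was higher and the sums of markers of postmitotic and of mature granule neurons were lower in every SHH MB than in every cerebellum. No single gene of these 3 lists was called in the fit of all libraries, and neither was any of the 10 subunit genes. In that fit all 16 proliferation genes were fitted higher in SHH MB. All 16 genes of postmitotic neurons and 13 of the 14 genes of mature granule neurons were fitted lower. These markers were not looked at in the fit of the 2 groups. The part of these cells in the subunit levels was not tested.

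**Figure D4:**
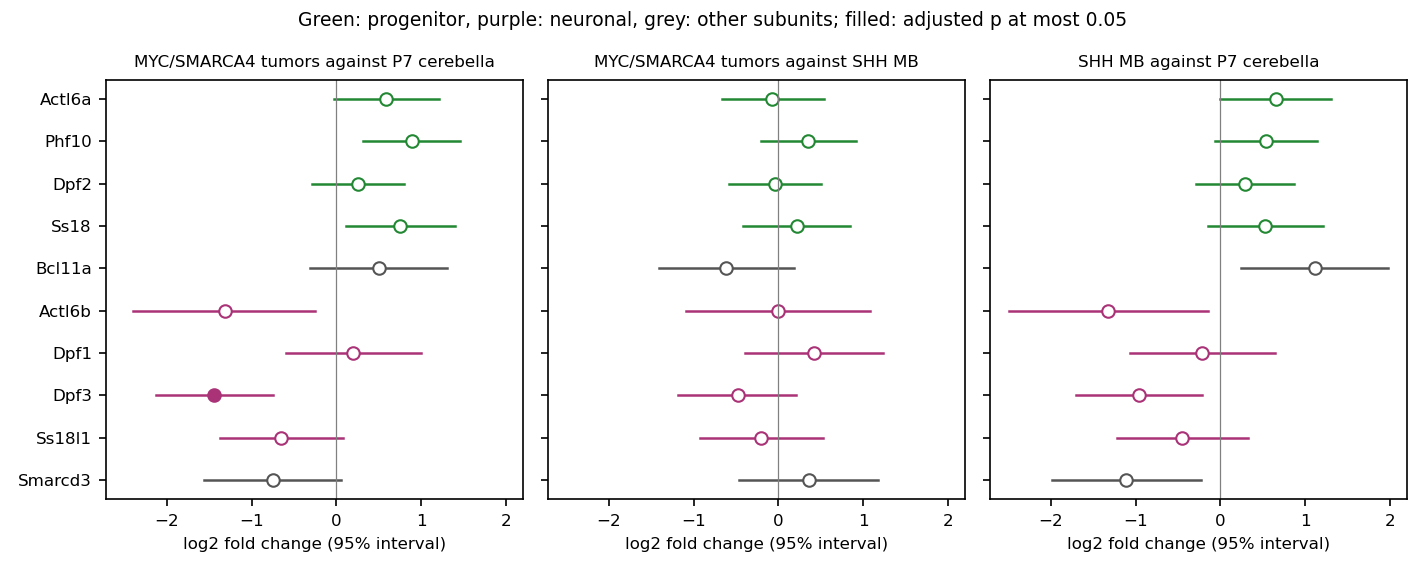
Log2 fold change (log2FC) of the 10 subunit genes (x axis, points with 95% intervals as lines) in the 3 comparisons, from the edgeR fit of all 10 libraries. Progenitor forms are green, neuronal forms purple and the others grey, and filled points mark an adjusted p of at most 0.05. Dpf3 in tumors against P7 cerebella, at -1.44, is the only filled point.

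Subunits outside the exchange were looked at for comparison. Of 20 other BAF, PBAF and ncBAF subunit genes, 1 was called higher and none lower in the tumors than in P7 cerebella, with a median log2FC of 0.33. That gene was Smarcd2, a paralog of Smarcd3. It was at 6.19, 6.85, 6.79 and 6.24 log2 CPM in tumors 1 to 4, at 5.46, 5.33 and 5.10 in P7 cerebella and at 4.76, 4.63 and 4.64 in SHH MB. All tumors, tumor 1 included, lay above all other libraries. Its log2FC was 1.25 ± 0.26 (adjusted p = 0.0183) against P7 cerebella and 1.88 ± 0.27 (adjusted p = 0.00192) against SHH MB. The call against SHH MB was kept in all 19 alternatives, and the call against P7 cerebella was kept in 14 of 19. It was lost when any of the 3 cerebella was left out, in the fit of these 2 groups only and with the replicate number as a block, with an adjusted p of at most 0.169. Against SHH MB, Smarca4 was the 1 gene of the 20 called lower, and the median was -0.14. In SHH MB against P7 cerebella none of the 20 was called, and the median was 0.44.

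The exchange is known to be controlled by the repressor REST and by the miRNAs miR-9 and miR-124. REST holds down neuronal genes and miRNA genes in progenitors, and the star strand of miR-9 together with miR-124 represses Actl6a in neurons. Of 14 genes listed for this control, 12 were in the files and all 12 were tested. Rest was at 4.81, 6.15, 6.20 and 6.58 log2 CPM in tumors 1 to 4, at 4.50, 4.85 and 4.98 in P7 cerebella and at 5.51, 5.42 and 5.85 in SHH MB. As for Ss18, tumor 1 lay within the cerebella and tumors 2 to 4 lay above all other libraries. Its log2FC against P7 cerebella was 1.29 ± 0.36, and the adjusted p of 0.0531 does not pass the threshold. Without tumor 1 it was 1.45 (adjusted p = 0.000949). Rest is given here after its values were seen.

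C130071C03Rik, a non-coding transcript whose RefSeq gene contains the Mir9-2 locus, was the 1 gene of this list called in the tumors. It was at 6.69, 6.95, 5.85 and 6.63 log2 CPM in tumors 1 to 4, at 7.87, 7.54 and 7.75 in P7 cerebella and at 7.69, 7.67 and 7.89 in SHH MB. All 4 tumors, tumor 1 included, lay below all 6 other libraries. The log2FC was -1.15 ± 0.28 (adjusted p = 0.0335) against P7 cerebella and -1.17 ± 0.28 (adjusted p = 0.0333) against SHH MB, 2 comparisons that share the same tumors. SHH MB and P7 cerebella overlapped in this gene. The call was kept in 9 of 19 alternatives against P7 cerebella, and not when any P7 cerebellum or SHH MB was left out, and its adjusted p was at most 0.139 over all 19. It was kept in 12 of 19 against SHH MB, and not when any SHH MB was left out, with an adjusted p of at most 0.202. The host gene of another miR-9 locus, Mir9-3hg, was at 6.79, 3.38, 2.73 and 3.99 log2 CPM in tumors 1 to 4, between 5.28 and 5.66 in P7 cerebella and between 6.68 and 6.97 in SHH MB. Tumors 2 to 4 lay below all other libraries, and tumor 1 lay above the cerebella. Mir9-3hg had log2FC values of -0.38 (adjusted p = 0.751) and -1.71 (adjusted p = 0.217) in these comparisons. Mir124a-1hg, the most abundant gene of the list, had -0.17 (adjusted p = 0.763) and 0.74 (adjusted p = 0.276). Ptbp1, a splicing repressor of progenitors, was lowest in tumor 1 (5.19 log2 CPM) and at 7.55, 7.18 and 8.34 in tumors 2 to 4, compared to between 5.97 and 6.32 in P7 cerebella and between 7.41 and 7.60 in SHH MB. Its log2FC was 1.24 (adjusted p = 0.156) against P7 cerebella and -0.10 (adjusted p = 0.935) against SHH MB. Ptbp2, also among the 4 most abundant genes of the list, was at 8.30, 7.18, 6.51 and 6.83 log2 CPM in tumors 1 to 4. It was between 6.52 and 7.00 in P7 cerebella and between 6.77 and 7.06 in SHH MB. Ptbp2 had log2FC values of 0.67 (adjusted p = 0.284) against P7 cerebella and 0.44 (adjusted p = 0.566) against SHH MB. Mature miRNAs were not measured separately here.

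The miRNA and its site in Actl6a are shown because they link the miR-9 loci to this subunit. Capitals mark the seed, bases 2 to 8 of the miRNA, and the letters in the 3′UTR that pair with it. The miRNA is encoded by 3 loci (Mir9-1, Mir9-2 and Mir9-3) and its sequence is from RefSeq.
miR-9-3p, the star strand: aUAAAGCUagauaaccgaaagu
Actl6a 3′UTR, chr3:32780778-32780806 of GRCm39, plus strand: tcaacgtctgtAGCTTTAgtacactcagg
The 3′UTR of Actl6a is 380 bases long and held 1 such site, and 2.9% of 15598 UTR windows of this length held one. Among the 10 subunit genes, the 3′UTRs of Actl6a and Bcl11a had 1 site each and those of the other 8 had none. These 3′UTRs were from 199 bases (Actl6b) to 3332 bases (Ss18) long. That of Bcl11a had 3266 bases, so the share for windows of 380 bases does not apply to it. A match is a description of letters and not a measured effect of the miRNA.

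The genes with a pattern over the 10 libraries most like Actl6b and Actl6a were looked for among 9330 genes, by the root mean square difference of log2 CPM after each gene was centred on its own mean. For Actl6b these were Barhl2 (0.19), Ttc9 (0.23), Cntn2 (0.24), Trim67 (0.26) and Cnih2 (0.26). Barhl2, the closest, was at 5.57, 4.19, 2.64 and 3.64 log2 CPM in tumors 1 to 4. It was between 5.32 and 5.69 in P7 cerebella and between 4.25 and 4.66 in SHH MB. Cntn2, which encodes an axonal adhesion protein, was at 8.94, 7.11, 5.67 and 6.68 log2 CPM in tumors 1 to 4, between 9.04 and 9.21 in P7 cerebella and between 7.49 and 8.13 in SHH MB. For Actl6a they were Cdc16 (0.12), Ryk (0.12), Cstf1 (0.12), Med1 (0.13) and Mbtd1 (0.14). Cdc16, a subunit of the anaphase-promoting complex, was at 5.59, 6.39, 6.0 and 6.73 log2 CPM in tumors 1 to 4, between 5.38 and 5.74 in P7 cerebella and between 6.08 and 6.25 in SHH MB.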

How the data were processed

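RNA of 10 FFPE samples was depleted of ribosomal RNA and sequenced with the CORALL total RNA kit. Per the submitters' processing notes, the authors used Trimmomatic 0.38.1, STAR 2.7.8a on GRCm39 and featureCounts 2.0.1. The deposited read counts are whole numbers per gene without normalization. The authors also deposited values on a log2 scale, made by variance-stabilizing transformation (VST) of the counts, which hold 46123 genes and were used for 1 alternative only. Whether counting used the strand, and which annotation was used, is not given in the sources used here.

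Groups were taken from the labels. Counts were tested with edgeR 4.0.16 (R 4.3.3; quasi-likelihood, TMM factors, filterByExpr, a mean per group, all 10 libraries), and p-values of 29952 genes were adjusted by the Benjamini-Hochberg method. For mean levels of a gene, exact permutation tests (two-sided, 35 or 20 splits) were used. Standard errors were derived from the F statistic. Log2 ratios used a prior count of 2 and exon lengths from GENCODE on GRCm39, in which 79.7% of symbols matched. The 10 subunit genes, the 14 gene lists (164 genes) and the thresholds were chosen with earlier results of these data known. Named genes are the 10 subunits, Smarca4, Myc, genes of the BAF list and of the REST and miRNA list that were called or among the 4 most abundant, and the 5 genes most like Actl6b and Actl6a. Rest, Mir9-3hg and Smarca2 were named after their values were seen. The same holds for the single genes named from the marker lists, which were called or served as examples. Alternatives were DESeq2 1.42.0, limma 3.58.1 on the VST values, RLE factors, other filters, library sizes without mitochondrial and rRNA-like genes, robust estimation, a fit of 2 groups, the replicate number as a block, stricter thresholds and each library left out in turn. Replicates with the same number in different groups did not deviate together (correlations from -0.27 to 0.16), so the numbers were not used to pair samples. Scripts were tested on simulated data. Intervals and standard errors do not cover errors of counting overlapping genes.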

Additional observations from a re-analysis of the deposited data

How the results depend on the processing

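Of 570 log2 fold changes of the 10 subunit genes under an alternative, 526 kept their direction and their side of the threshold, 21 passed it in the same direction where they had not before, 8 no longer passed it and 15 changed sign; causes were not tested except where the alternative leaves out samples. Against P7 cerebella, the number of subunit genes called higher in the tumors was 0 and became 1 with DESeq2, and the number called lower was 1 and became 3 with at least 10 counts in every library and 0 in the fit of 2 groups, with an adjusted p of at most 0.01, and with this p and a log2FC of 2.5 or more. With each library left out in turn, these numbers ranged from 0 to 3 and from 0 to 4, with the highest values without tumor 1, 2 genes lower without tumor 3, and 0 lower without any P7 cerebellum or SHH MB. Numbers of genes without overlap ranged from 1 to 4 (higher) and from 1 to 4 (lower) against P7 cerebella, and from 0 to 1 and 0 to 2 against SHH MB, with levels normalized anew in each fit. Against P7 cerebella, 4 were higher without tumor 1. The 3 lower genes became 4 without tumor 1, 3 or 4 or any P7 cerebellum, 1 without SHH MB 1 or SHH MB 3, and 2 with RLE factors and with library sizes without mitochondrial and rRNA-like genes. For SHH MB against P7 cerebella, 4 genes were called higher and 4 lower in the fit of 2 groups, and between 0 and 1 in each direction with a library left out, with 1 each without tumor 1.

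Changes of sign were close to 0. Against P7 cerebella, Dpf2 had -0.04 and Dpf1 -0.12 with at least 10 counts in every library, and Dpf1 ranged from -0.20 to 0.31 with a library left out (-0.03 without tumor 1, -0.20 without tumor 4, -0.01 without P7 cerebellum 3). Against SHH MB, Actl6b had 0.03 with DESeq2, 0.00 with RLE factors and values from -0.89 to 0.10 with a library left out (0.04, 0.10 and 0.02 without tumor 2, 3 or 4, 0.01 and 0.06 without SHH MB 1 or 2). Actl6a ranged from -0.31 to 0.02 (0.02 without SHH MB 2) and Smarcd3 from -0.08 to 0.64 (-0.08 without tumor 1). For C130071C03Rik, SHH MB against P7 cerebella gave -0.05 with at least 10 counts in every library, and from -0.07 to 0.09 with a library left out (-0.07 without P7 cerebellum 2, -0.01 without SHH MB 3).

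With the replicate number as a block, 0 subunit genes were called lower in the tumors than in P7 cerebella and Dpf1 had -0.12. Since the numbers did not pair the samples, samples share only a number here.

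Depth limits Actl6b most, with 31 counts in tumor 3.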

Other observations

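Marker lists not used above are given as sums of CPM, with no marker at 0 in any library. GCP markers (10 genes) summed to 1226, 2811, 1447 and 1231 CPM in tumors 1 to 4, to between 2412 and 2821 CPM in P7 cerebella and to between 4115 and 4714 CPM in SHH MB. This sum rests largely on abundant genes such as Ccnd2, at 10.7 log2 CPM in tumor 2. Of the 10 genes, 8 were fitted lower and 2 higher in the tumors than in P7 cerebella. Barhl1 (-3.16), Mycn (-3.74) and Sfrp1 (-4.20) were called lower. Oligodendrocyte markers (10 genes) summed to 4223, 855, 135 and 478 CPM in tumors 1 to 4, 988 to 1180 CPM in P7 cerebella and 138 to 418 CPM in SHH MB. Markers of inhibitory interneurons (8 genes) summed to 1889, 429, 85 and 315 CPM in the tumors, 411 to 430 CPM in P7 cerebella and 151 to 239 CPM in SHH MB. Both lists had the same order of tumors as the mature granule neuron list. Choroid plexus markers (8 genes) were lower in every tumor (49 to 174 CPM) than in every P7 cerebellum (706 to 1324 CPM) and every SHH MB (366 to 1458 CPM). Sums of markers of astrocytes and Bergmann glia ranged from 612 to 3000 CPM in the tumors, of microglia from 53 to 235 CPM, of endothelium from 114 to 469 CPM and of fibroblasts from 384 to 2586 CPM, and these ranges covered or overlapped those of P7 cerebella and SHH MB. Of the 10 genes of astrocytes and Bergmann glia, 6 were fitted lower and 4 higher in the tumors than in P7 cerebella. Aqp4, Aldh1l1 and Gdf10 were called lower, and Ogn of the fibroblast list was called higher.

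Smarcc1, which encodes a core subunit common in progenitor complexes, was at 6.14, 9.04, 8.97 and 9.23 log2 CPM in tumors 1 to 4, between 7.37 and 7.59 in P7 cerebella and between 8.45 and 8.69 in SHH MB. Tumor 1 was the lowest of all libraries and tumors 2 to 4 were the highest. Its log2 fold change was 1.24 (adjusted p = 0.165) against P7 cerebella. Arid1a and Smarcc2, more abundant genes of the same list, had 0.47 (adjusted p = 0.442) and -0.21 (adjusted p = 0.632) against P7 cerebella. Smarca2, the alternative ATPase of the complex, was named after its values were seen. It was at 8.46, 7.96, 5.42 and 7.23 log2 CPM in tumors 1 to 4, between 7.21 and 7.42 in P7 cerebella and between 6.95 and 7.27 in SHH MB, with the highest level in tumor 1 and the lowest in tumor 3. Its log2 fold change was 0.33 (adjusted p = 0.676) against P7 cerebella and 0.57 (adjusted p = 0.569) against SHH MB.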
